A study of Homo sapiens with 12 samples.

Results

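The genes described here are 44 members of the WNT signalling system, chosen by symbol and grouped by role: 15 WNT ligands, 14 receptors and co-receptors (the Frizzled family, LRP5, LRP6, ROR1 and ROR2), 5 genes of the R-spondin axis, 4 signal transducers and 6 genes commonly used as readouts of the pathway. Their RNA levels were read from 12 Illumina bead arrays of H9, an established line of human embryonic stem cells. The arrays carried 69 probes for these genes, of which 46 passed a filter on detection (some group with a detection p below 0.01 on each of its 2 arrays). They represent 36 of the 44 members and are part of 15650 genes tested. The 8 members without such a probe were WNT1, WNT2, WNT3A, WNT8A, WNT8B, FZD10, LGR5 and TCF7. Among these 8, WNT3A was detected on replicate 1 of dox-minus day 4 and replicate 1 of dox-minus day 16, and the others were detected on 0 of 12 arrays.

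WNT proteins are secreted lipid-modified ligands that bind Frizzled receptors. With LRP5 or LRP6 as co-receptor, they stop the destruction complex, which contains AXIN1, from degrading beta-catenin (the product of CTNNB1). Beta-catenin then acts with TCF and LEF factors on target genes such as AXIN2, SP5 and NKD1, several of which feed back on the pathway. R-spondins, through LGR receptors, keep Frizzled and LRP proteins at the cell surface, and ROR1 and ROR2 are receptors of the branch that does not use beta-catenin. In the developing head, low WNT signalling favours forebrain and high WNT signalling favours more posterior neural tissue and mesoderm.

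The series concerns LHX2 during neural differentiation, a transcription factor with LIM domains and a homeodomain that acts in forebrain and eye field. In the overexpression arm, all cells were H9 cells with a doxycycline-inducible LHX2 construct, either untreated (dox-minus) or treated with doxycycline for 3 days (dox-plus), and collected at day 4 or day 16, which is 1 or 13 days after that treatment. In the knockdown arm, H9 cells expressing a hairpin RNA that targets LHX2 (shLHX2) were compared with cells carrying a hairpin against luciferase (shLuc), all at day 12 of neural induction. Each of the 6 groups had 2 arrays, described as biological duplicates. The series text names GFP as a control, but the array labels name only LHX2 cells with and without the drug, so an effect of doxycycline itself cannot be told apart from one of the construct. The number and clonality of the lines are not given in the sources used here.

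Between 19050 and 20489 of 47227 probes were detected per array, and precision is limited by having 2 arrays a group. Across genes, Pearson correlations were 0.976 to 0.994 inside a group and 0.901 to 0.989 among groups, and genes are not independent replicates. LHX2 itself had a log2 signal of 7.72 ± 0.52 (SD, n = 2) in shLHX2 and 9.75 ± 0.03 (SD, n = 2) in shLuc cells, a fall of 2.03 ± 0.27 (SE; limma adjusted p = 0.00592). That call was lost without shLHX2 replicate 1 (adjusted p = 0.0683), shLuc replicate 1 (0.109) or shLuc replicate 2 (0.102). In the overexpression arm the LHX2 difference did not pass: at day 4 it was 0.70 ± 0.27 on the log2 scale (SE; limma adjusted p = 0.272), with 0 of 2 dox-minus and 1 of 2 dox-plus arrays detecting the gene, and at day 16 it was 0.86 ± 0.27 (SE; limma adjusted p = 0.0581). All 6 tested pluripotency markers were detected in every group. All 8 forebrain markers, LHX2 itself among them, were detected on at least 1 array of each day 16 group.

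Values below are normalized log2 signals per array, with replicate 1 first, and differences are log2 fold changes ± the standard error (SE) of 1 limma fit over all 12 arrays, n = 2 arrays a group. Genes with an adjusted p under 0.05 were called, with Benjamini-Hochberg adjustment over all 15650 genes. Where a gene was detected on neither array of 1 group, the difference is also given as a bound ("at least N-fold"), the brighter group's mean against the lowest signal well detected on the dim arrays. Levels of different probes are not comparable, so each gene is compared only with itself. In these bulk samples, fewer cells of a type and less RNA per cell cannot be told apart.

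The promoters of 3 members are shown because SP5 and RSPO3 were the members called in the knockdown and LEF1 was the pathway readout with the largest fall at day 16. They are the 250 bases before the gene start in RefSeq (GRCh38.p14), written 5′ to 3′ on the gene's strand, at chr2:170715087-170715336 (+) for SP5, chr6:127118421-127118670 (+) for RSPO3 and chr4:108166302-108166551 (-) for LEF1. Capitals mark matches to the TCF/LEF core motifs CTTTGAT and CTTTGAA on either strand.
SP5: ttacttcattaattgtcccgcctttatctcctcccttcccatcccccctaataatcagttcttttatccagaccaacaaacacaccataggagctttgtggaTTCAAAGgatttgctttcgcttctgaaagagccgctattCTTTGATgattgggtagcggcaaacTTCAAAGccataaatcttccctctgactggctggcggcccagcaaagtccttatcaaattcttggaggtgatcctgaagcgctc
RSPO3: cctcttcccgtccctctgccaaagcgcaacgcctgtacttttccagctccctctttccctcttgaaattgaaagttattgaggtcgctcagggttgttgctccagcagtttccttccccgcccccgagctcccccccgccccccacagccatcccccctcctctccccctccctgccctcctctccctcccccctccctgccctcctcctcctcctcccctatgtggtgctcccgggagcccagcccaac
LEF1: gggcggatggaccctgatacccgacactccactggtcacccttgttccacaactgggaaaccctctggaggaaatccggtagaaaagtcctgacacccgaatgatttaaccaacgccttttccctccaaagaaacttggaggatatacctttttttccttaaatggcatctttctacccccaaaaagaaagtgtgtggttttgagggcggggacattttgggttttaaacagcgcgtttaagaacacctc
The SP5 sequence held CTTTGAT on its own strand 109 to 103 bases before the start. It also held CTTTGAA on the opposite strand at 148 to 142 and at 84 to 78 bases before the start, where the printed strand reads TTCAAAG. The other sequences held neither motif. Promoters were found for 31 of 44 members, 38 promoters in all, and SP5 was the only one of the 38 with either motif, against 5.94% of 35116 promoters in the table. The homeodomain core TAATTA, which is its own reverse complement, was in 2 of the 38 (WNT5A and WNT8B) against 4.35% of all. These matches describe the letters in this window and say nothing of binding.

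At day 4, 1 day after the drug, 0 of 36 members were called between dox-plus and dox-minus cells, against 1.93% of all genes (1.34% higher and 0.594% lower). The number with an unadjusted p under 0.05 was 8, and the share of all genes at that cutoff was not computed. The median log2 fold change of the members was 0.03, or 0 with undetected members at their bound, against -0.007 for all genes. At day 16, 6 members had risen and 6 had fallen in dox-plus cells: FZD3, WNT7B, WNT5B, FZD8, RSPO1 and LGR4 were higher, and LEF1, TNFRSF19, WNT3, WNT6, WNT11 and RSPO2 were lower. That is 33.3% of the members, against 13.7% of all genes, which were called higher in 6.08% and lower in 7.64%. The members' median was -0.02, or 0 with undetected members at their bound, against 0.016 for all genes. WNT6 and WNT11 passed the detection filter only through dox-minus day 16, and WNT7B and RSPO1 only through dox-plus day 16. That is the group where each was highest, so the filter favoured the direction of their differences from it. In the knockdown, 2 of 36 members were called, both lower in shLHX2 cells (SP5 and RSPO3), which is 5.56% against 0.543% of all genes.

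**Figure D1:**
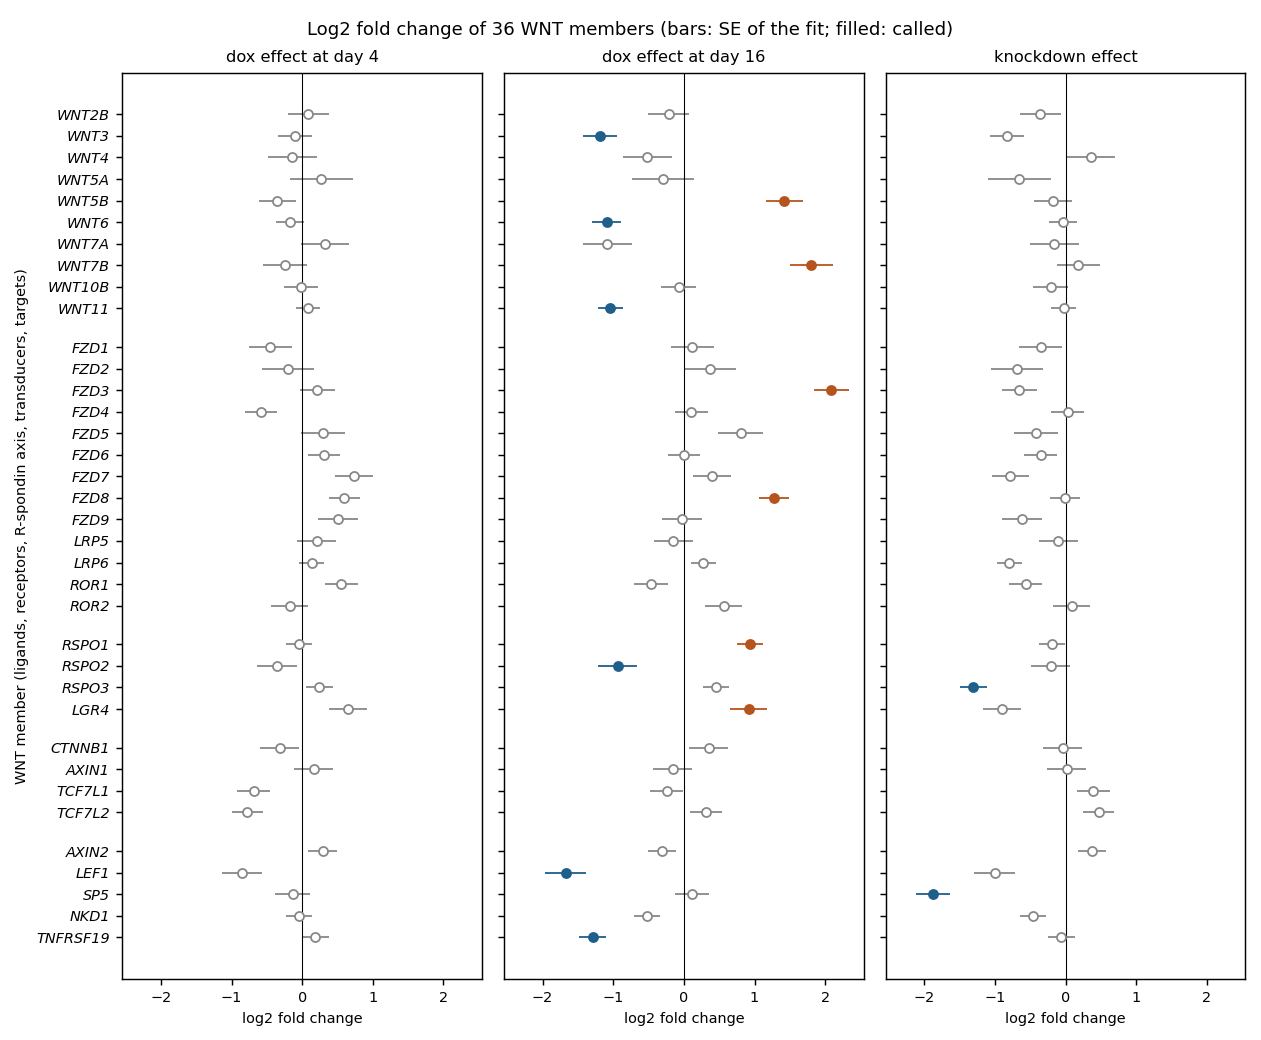
Log2 fold change (x axis, bars are the SE of the fit) of each of the 36 tested members, grouped by role on the y axis, for the dox effect at day 4, the dox effect at day 16 and the knockdown effect. Filled points are called (orange higher, blue lower): 0 at day 4, 6 higher and 6 lower at day 16, and 2 lower in the knockdown.

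Of the 10 ligands tested, 2 rose and 3 fell in dox-plus cells at day 16. WNT5B, a ligand mostly studied in signalling without beta-catenin, read 9.10 and 8.59 in dox-minus and 10.11 and 10.43 in dox-plus cells at day 16, a rise of 1.42 ± 0.26 (limma adjusted p = 0.00373). Its groups did not overlap, as was so at day 16 for 13 members higher and 10 lower of the 36. Such separation is common with 2 arrays a group, and its share over all genes was not computed. At day 4 it read 6.86 and 6.72 without and 6.55 and 6.33 with the drug. WNT7B, a ligand of the developing neural tube and lung, was detected on 1 dox-minus array at day 16 (5.77, and 5.22 not detected) and on both dox-plus arrays (6.87 and 7.73). It rose by 1.81 ± 0.31 (limma adjusted p = 0.00222) and was detected on 0 of 4 arrays at day 4. Its other kept probe, detected only on the 2 dox-plus arrays of day 16, gave 0.72 with an adjusted p over probes of 0.0605.

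The 3 ligands that fell at day 16 were WNT3, WNT6 and WNT11. WNT3, needed in mouse for the primitive streak, read 7.96 and 7.66 in dox-minus and 6.38 and 6.87 in dox-plus cells, a log2 fold change of -1.19 ± 0.24 (limma adjusted p = 0.0065). The 2 dox-plus arrays were the lower ones, and without dox-plus day 16 replicate 1 the call was lost (adjusted p = 0.0865). WNT6 read 6.72 and 6.60 in dox-minus and 5.68 and 5.45 in dox-plus cells, the last not detected, a log2 fold change of -1.09 ± 0.20 (limma adjusted p = 0.00377). WNT11, a ligand of convergent extension in frog and fish embryos, was detected on both dox-minus arrays (5.58 and 5.75) and on neither dox-plus array (4.75 and 4.50). It was thus at least 1.11-fold lower (log2 fold change -1.04 ± 0.17, limma adjusted p = 0.00188), and dox-minus day 16 was its only group with a detected array. WNT7A was not called, with 6.05 and 5.94 in dox-minus cells and no detected dox-plus array (5.05 and 4.77), at least 1.40-fold lower at an adjusted p of 0.0563. The other 4 ligands (WNT2B, WNT4, WNT5A and WNT10B) were not called at day 16, with log2 fold changes from -0.52 to -0.07.

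Of the 13 receptors tested, 2 rose at day 16 and 0 fell (15.4%, near the 13.7% of all genes). FZD3, a Frizzled required for axon guidance in mouse, read 8.66 and 9.22 in dox-minus and 11.08 and 10.98 in dox-plus cells, a rise of 2.09 ± 0.24 (limma adjusted p = 0.000161). Among the probes used it was the largest change of any member at day 16 (another probe of RSPO2 gave -2.57), and the 2 dox-plus day 16 arrays were above the other 10. FZD8, a Frizzled of the anterior neural plate, read 8.22 and 8.40 without and 9.55 and 9.63 with the drug, a rise of 1.28 ± 0.21 (limma adjusted p = 0.00201). The other 11 receptors had log2 fold changes between -0.47 (ROR1) and 0.80 (FZD5), the latter at an adjusted p of 0.114. The co-receptors LRP5 (-0.15, adjusted p = 0.757) and LRP6 (0.28, adjusted p = 0.325) were detected on all 4 arrays of day 16.

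The R-spondins did not move in 1 direction at day 16. Of the 4 genes tested on the R-spondin axis, 3 were called (75.0%, against 13.7% of all genes). RSPO1 was detected on both dox-plus arrays (5.97 and 5.56) and on neither dox-minus array (4.85 and 4.81), and so was at least 1.15-fold higher (log2 fold change 0.94 ± 0.18, limma adjusted p = 0.0049). RSPO2 read 6.89 and 7.06 in dox-minus and 6.18 and 5.90 in dox-plus cells, a log2 fold change of -0.94 ± 0.28 (limma adjusted p = 0.0448). Its other kept probe was detected only on the 2 dox-minus arrays of day 16 (7.23 and 7.60) and gave -2.57 (adjusted p over probes 4.37e-06). That probe passed the detection filter only through this group, where it was highest, so the filter favoured its direction. RSPO3 was detected on all 4 arrays of day 16 (7.74 and 7.42 without, 8.07 and 8.01 with the drug), with 0.45 ± 0.19 at a limma adjusted p of 0.136. LGR4, the R-spondin receptor, read 7.69 and 8.14 without and 9.01 and 8.66 with the drug, a rise of 0.92 ± 0.26 (limma adjusted p = 0.0386). These 3 calls depended on single arrays and on settings. RSPO1 was lost without dox-plus day 16 replicate 1 (adjusted p = 0.079) and in the unnormalized series value table (0.43, adjusted p = 0.0875). RSPO2 was lost without either replicate of dox-minus day 4, dox-minus day 16, dox-plus day 16 or shLHX2 (adjusted p from 0.0581 to 0.183). LGR4 was lost without either replicate of dox-minus day 4, dox-plus day 16 or shLuc, or without dox-minus day 16 replicate 1 (adjusted p from 0.0536 to 0.264). RSPO2 was also lost under 7 other settings at the same threshold, namely array weights, cyclic loess, median scaling, no filter, a fit of the 8 dox arrays alone, the unnormalized series value table, and a trended and robust spread (adjusted p from 0.0503 to 0.111). LGR4 was lost with array weights, cyclic loess, no filter and a fit of the 8 dox arrays alone (adjusted p from 0.051 to 0.0757).

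None of the 4 transducers was called at day 16, against 13.7% of all genes. CTNNB1, AXIN1, TCF7L1 and TCF7L2 had log2 fold changes from -0.24 to 0.35, and all 4 were detected on every array. Of the 5 readout genes tested, 2 fell and 0 rose (40.0%, against 13.7% of all genes). LEF1, the transcription factor that partners beta-catenin and is itself a target, read 9.09 and 9.71 in dox-minus and 8.0 and 7.45 in dox-plus cells, a log2 fold change of -1.68 ± 0.29 (limma adjusted p = 0.00221). Its other kept probe gave -1.74 (adjusted p over probes 0.000557). TNFRSF19, a receptor of the tumour necrosis factor family known as a WNT target, read 10.37 and 10.43 without and 9.15 and 9.07 with the drug, a log2 fold change of -1.29 ± 0.19 (limma adjusted p = 0.000828). AXIN2, a negative feedback gene often used as a WNT reporter, read 9.63 and 9.48 without and 9.22 and 9.28 with the drug, with -0.30 ± 0.20 at a limma adjusted p of 0.339. SP5 was detected on all 4 of these arrays at 0.12 ± 0.25 (limma adjusted p = 0.79). NKD1, a feedback inhibitor, was detected only on the dox-minus arrays (6.08 and 5.82 against 5.46 and 5.41), at least 1.36-fold lower at an adjusted p of 0.089. LEF1 and TNFRSF19 thus differed between the groups while AXIN2 and SP5 did not pass the test.

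**Figure D2:**
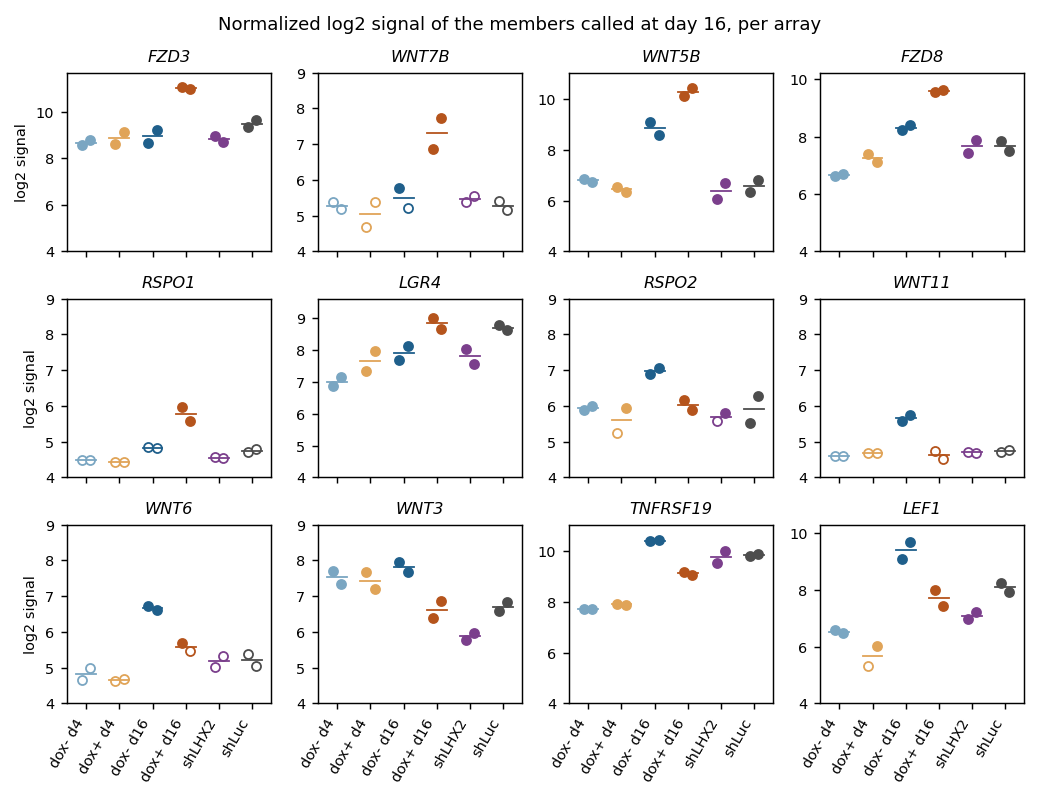
Normalized log2 signal (y axis) of the 12 members called at day 16 on each of the 12 arrays (x axis, 2 points a group, lines at the group mean). Hollow points were not detected: RSPO1 was detected only in dox-plus day 16 cells and WNT11 only in dox-minus day 16 cells.

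Markers of other cell types moved with the drug at day 16, where 6.08% of all genes were called higher and 7.64% lower. Of 11 mesenchyme markers, 10 fell and 0 rose, and their summed linear signal was 36700 to 36900 in dox-minus and 7900 to 8750 in dox-plus cells. Their largest change was COL6A3, a collagen chain, at -4.28 ± 0.20 (limma adjusted p = 1.28e-07). Of 7 mesoderm markers 5 fell and 1 rose, with sums of 14900 to 16200 against 1900 to 2350, and FOXF1, APLNR and GATA4 were not detected in dox-plus cells. APLNR, the apelin receptor, changed most, at least 15.4-fold lower. Of 6 hindbrain and spinal markers, 5 fell, led by HOXB8 at a bound of at least 21.5-fold, and 1 rose, with sums of 2740 to 3870 against 336 to 344, and HOXB3, HOXB4, HOXB5 and HOXB8 were not detected in dox-plus cells. Neural progenitor markers rose in 4 of 7 cases and fell in 0 (sums of 7150 to 8120 against 27500 to 27800), led by FABP7 at 3.80 ± 0.48 (limma adjusted p = 0.000318). Forebrain markers rose in 5 of 8 and fell in 0 (8050 to 10400 against 17800 to 20100), led by SP8 at 3.25 ± 0.20 (limma adjusted p = 8.05e-07). LHX2 is part of this list and its sums and was not among the 5 called. Neuron markers rose in 3 and fell in 1 of 6 (3340 to 4580 against 3840 to 4330), led by MAP2. Neural crest markers rose in 1 and fell in 2 of 6 (5700 to 8210 against 4240 to 4370), led by SNAI2, and cortical hem and choroid plexus markers fell in 3 of 5 (2960 to 4170 against 1120 to 1370), led by MSX1. All 4 endoderm markers were undetected in dox-plus cells (sums of 714 to 807 against 116 to 121, 3 called lower, led by APOA1), and 2 of 6 pluripotency markers fell (19400 to 23600 against 23800 to 26000), led by NANOG. At day 4, TBX1 of the mesoderm list (lower) was the 1 marker called in these 10 lists. The part of these differences in cell type markers in the day 16 values of the WNT members was not tested.

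The effects of the drug at day 16 and at day 4 were also set against each other within the same fit, as the day 16 effect minus the day 4 effect. Of the 36 members, 6 differed (4 higher and 2 lower), which is 16.7% against 7.85% of all genes. The day 16 effect was above the day 4 effect by 1.87 ± 0.34 for FZD3 (limma adjusted p = 0.00605), 2.05 ± 0.44 for WNT7B (limma adjusted p = 0.0141) and 1.78 ± 0.37 for WNT5B (limma adjusted p = 0.0132). The day 4 effects of WNT7B (-0.25) and WNT5B (-0.35) were below 0 and not called, and WNT7B was undetected on the 4 arrays of day 4. RSPO1 differed by 0.98 ± 0.26 (limma adjusted p = 0.0374), although it was detected on 0 of 4 arrays of day 4. TNFRSF19 (-1.48 ± 0.27, limma adjusted p = 0.00553) and WNT11 (-1.12 ± 0.24, limma adjusted p = 0.0158) had lower effects at day 16. WNT11 was lost with an offset of 50 (-0.57, adjusted p = 0.1), with no background correction (-0.64, adjusted p = 0.0545) and in a fit of the 8 dox arrays alone (adjusted p = 0.0536). RSPO1 was lost under those settings and with array weights, the replicate block or the series value table (adjusted p from 0.0605 to 0.219). LEF1 was not called by the probe used (-0.82 ± 0.40, limma adjusted p = 0.248) and passed by its other kept probe (-1.31, adjusted p over probes 0.0368). The probe used read 6.57 and 6.49 in dox-minus and 5.33 (not detected) and 6.02 in dox-plus cells at day 4. RSPO2 (-2.63, adjusted p over probes 0.000119) and CTNNB1 (1.27, adjusted p over probes 0.0352) passed by another kept probe and not by the one used, while the other kept probe of WNT7B gave 1.10 (adjusted p over probes 0.0676). These RSPO2 and WNT7B probes each passed the detection filter only through 1 day 16 group, which favoured the direction of their differences. Of the 6 calls, FZD3 and TNFRSF19 were made in every fit that left out 1 array. The other calls were lost without dox-minus day 4 replicate 1 (WNT5B, WNT7B, WNT11 and RSPO1, adjusted p from 0.0518 to 0.103) and without dox-plus day 16 replicate 2 (WNT5B, WNT7B and WNT11, 0.0535 to 0.0701). Without dox-minus day 4 replicate 2, WNT11 and RSPO1 were lost (0.0549 and 0.102), and RSPO1 was lost in each of the other 9 fits that left out an array other than dox-plus day 16 replicate 2 (0.0505 to 0.18).

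SP5 and RSPO3 were the members called in the knockdown, and both were detected on each shLuc array and on neither shLHX2 array. SP5 (Entrez gene 389058), a zinc finger repressor that is a direct WNT target, read 5.60 and 4.94 in shLHX2 and 7.05 and 7.25 in shLuc cells, at least 2.89-fold lower after knockdown (log2 fold change -1.88 ± 0.25, limma adjusted p = 0.00542). It is the gene whose promoter above holds 3 TCF/LEF core matches, and a link of these to its fall was not tested. RSPO3 (Entrez gene 84870), a secreted amplifier of WNT signalling, read 4.66 and 4.87 in shLHX2 and 5.94 and 6.20 in shLuc cells, at least 1.37-fold lower (log2 fold change -1.31 ± 0.19, limma adjusted p = 0.00837). Both calls depend on single arrays. SP5 was lost without shLHX2 replicate 2 (adjusted p = 0.0541), shLuc replicate 1 (0.0863) or shLuc replicate 2 (0.108). RSPO3 was lost without shLHX2 replicate 1 (0.0917), shLHX2 replicate 2 (0.0521), shLuc replicate 1 (0.109) or shLuc replicate 2 (0.175).

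The median log2 fold change of the 36 members in the knockdown was -0.21, or -0.14 with undetected members at their bound, against 0.005 for all genes. With median scaling the medians were -0.31 and -0.13, and in the deposited table of unnormalized values -0.27 and -0.17. Of the 36, 34 were not called. LEF1 read 6.96 and 7.21 in shLHX2 and 8.25 and 7.93 in shLuc cells (-1.0 ± 0.29, limma adjusted p = 0.191). Its other kept probe gave -1.19 (adjusted p over probes 0.0626). LGR4 read 8.04 and 7.57 against 8.79 and 8.62 (-0.90 ± 0.26, limma adjusted p = 0.207), and WNT3 read 5.78 and 5.97 against 6.59 and 6.82 (-0.83 ± 0.24, limma adjusted p = 0.199). In these 3 genes the groups did not overlap, yet the test over all genes did not call them. With 2 arrays a group such separation is common. It was seen in 15 of the 36 members lower and 3 higher in shLHX2 cells, and its share over all genes was not computed. AXIN2 had the opposite sign, with 10.44 and 10.16 against 9.97 and 9.89 (0.37 ± 0.20, limma adjusted p = 0.578). NKD1 was detected on both shLuc arrays (5.60 and 5.71) and on neither shLHX2 array (5.37 and 5.01), at least 1.03-fold lower at an adjusted p of 0.419. By the probes used, LRP6, with 5.73 and 5.50 (not detected) against 6.43 and 6.39, was nearest to the threshold among the rest (-0.79 ± 0.18, limma adjusted p = 0.0823). Its adjusted p over probes was 0.11, above that of the other LEF1 probe. SP5 and LEF1 were thus both lower on the shLHX2 arrays and AXIN2 was higher, with the test passed for SP5 alone.

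**Figure D3:**
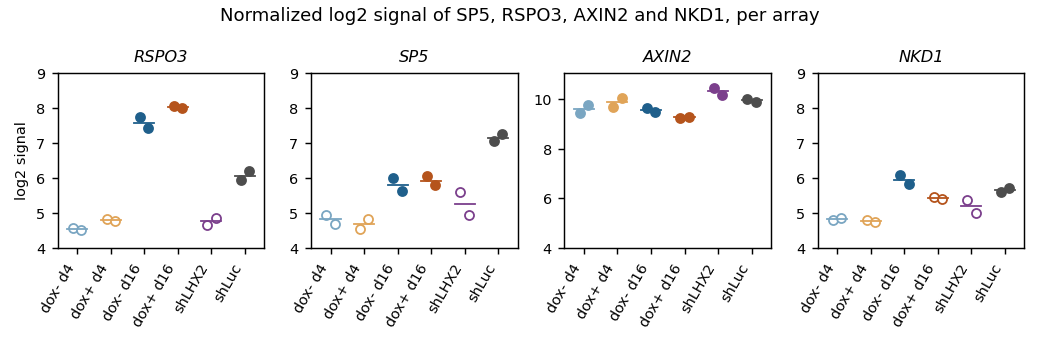
Normalized log2 signal (y axis) of RSPO3, SP5, AXIN2 and NKD1 on each of the 12 arrays (x axis, 2 points a group, lines at the group mean, hollow points not detected). RSPO3 and SP5 were detected on both shLuc arrays and neither shLHX2 array, and RSPO3 was detected on all 4 arrays of day 16 in the overexpression arm.

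Few cell type markers were called in the knockdown, where 0.543% of all genes were called. PAX6, a neural progenitor factor, fell by 1.57 ± 0.22 (limma adjusted p = 0.0079) as the 1 of 7 neural progenitor markers called, and the list summed to 3330 to 3700 in shLHX2 and 3770 to 4080 in shLuc cells. Of 8 forebrain markers, LHX2 alone was called (sums of 2480 to 3000 against 3930 to 4490). As the targeted gene it is part of these sums, so they do not give the level of forebrain markers apart from it. The mesenchyme list had 1 of 11 markers called higher, DCN (5430 to 6080 against 5800 to 6170), the mesoderm list 1 of 7 lower, APLNR (3150 to 5480 against 2330 to 2380), the endoderm list 1 of 4 lower, APOA1 (306 to 359 against 538 to 588), and the hindbrain and spinal list 1 of 6 higher, HOXB2 (318 to 396 against 220 to 251). In the pluripotency (41900 to 47900 against 41600 to 43700), neuron (3660 to 4450 against 4110 to 4300), neural crest (3680 to 5590 against 3170 to 3250) and cortical hem and choroid plexus lists (1220 to 1550 against 1680 to 1710), 0 markers were called. Their part in the fall of SP5 and RSPO3 was not tested. Each of these marker calls was lost without at least 2 of the 4 knockdown arrays.

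Between day 4 and day 16 more of the WNT members rose than fell, in both treatments. Without the drug, 15 of 36 members rose and 1 fell (44.4%, against 18.0% of all genes, 9.70% higher and 8.35% lower), and the members' median was 0.40, or 0.21 with undetected members at their bound, against -0.04 for all genes. After the drug, 19 rose and 5 fell (66.7%, against 36.6% of all genes, 17.8% higher and 18.9% lower), with a median of 0.69, or 0.21 at the bound, against -0.011. These comparisons share their arrays with the dox effects above. The number of members detected on both arrays was 26 in dox-minus and 24 in dox-plus cells at day 4, and 31 and 29 at day 16. Over all 47227 probes detection also rose, from 19050 to 19296 per day 4 array to 19750 to 20489 per day 16 array. Detected on no day 4 array but on at least 1 day 16 array were 9 members (WNT4, WNT5A, WNT6, WNT7B, WNT11, RSPO1, RSPO3, SP5 and NKD1), of which WNT5A, RSPO3 and SP5 were detected on all 4 day 16 arrays. Of the 9, WNT6, WNT7B, WNT11 and RSPO1 passed the detection filter only through a day 16 group. The share of all genes with this pattern was not computed. WNT10B was the member detected on all 4 arrays of day 4 and on 0 of day 16.

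Among the probes used, RSPO3 and LEF1 had the largest fitted rises without the drug. That of RSPO3 started from undetected signals, so its size is known only as a bound and its rank is not fixed. RSPO3 was undetected at day 4 (4.59 and 4.53 in dox-minus, 4.84 and 4.77 in dox-plus cells) and was at least 3.75-fold higher at day 16 without (limma adjusted p = 5.07e-07) and at least 5.27-fold higher with the drug (limma adjusted p = 2.68e-07). LEF1 rose by 2.87 ± 0.29 without (limma adjusted p = 2.53e-05) and by 2.05 ± 0.29 with the drug (limma adjusted p = 0.000201). TNFRSF19 read 7.71 and 7.71 in dox-minus and 7.90 and 7.89 in dox-plus cells at day 4, and rose by 2.69 ± 0.19 without (limma adjusted p = 1.31e-06) and 1.22 ± 0.19 with the drug (limma adjusted p = 0.000445). The readouts did not all move alike. SP5, undetected on the 4 arrays of day 4 (4.56 to 4.95), read 6.0 and 5.62 in dox-minus and 6.05 and 5.81 in dox-plus cells at day 16, at least 1.10-fold higher without (limma adjusted p = 0.0153) and at least 1.22-fold higher with the drug (limma adjusted p = 0.00231). NKD1 read 4.79 and 4.86 in dox-minus and 4.81 and 4.75 in dox-plus cells at day 4, none detected. It was at least 1.21-fold higher at day 16 without the drug (limma adjusted p = 0.00131), while with the drug it was called (0.65 ± 0.19, limma adjusted p = 0.0179) although no dox-plus array of either day detected it, so no bound is given. AXIN2 read 9.42 and 9.73 in dox-minus and 9.69 and 10.03 in dox-plus cells at day 4, and fell by 0.61 ± 0.20 with the drug (limma adjusted p = 0.0319) against -0.02 ± 0.20 without (limma adjusted p = 0.966).

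**Figure D4:**
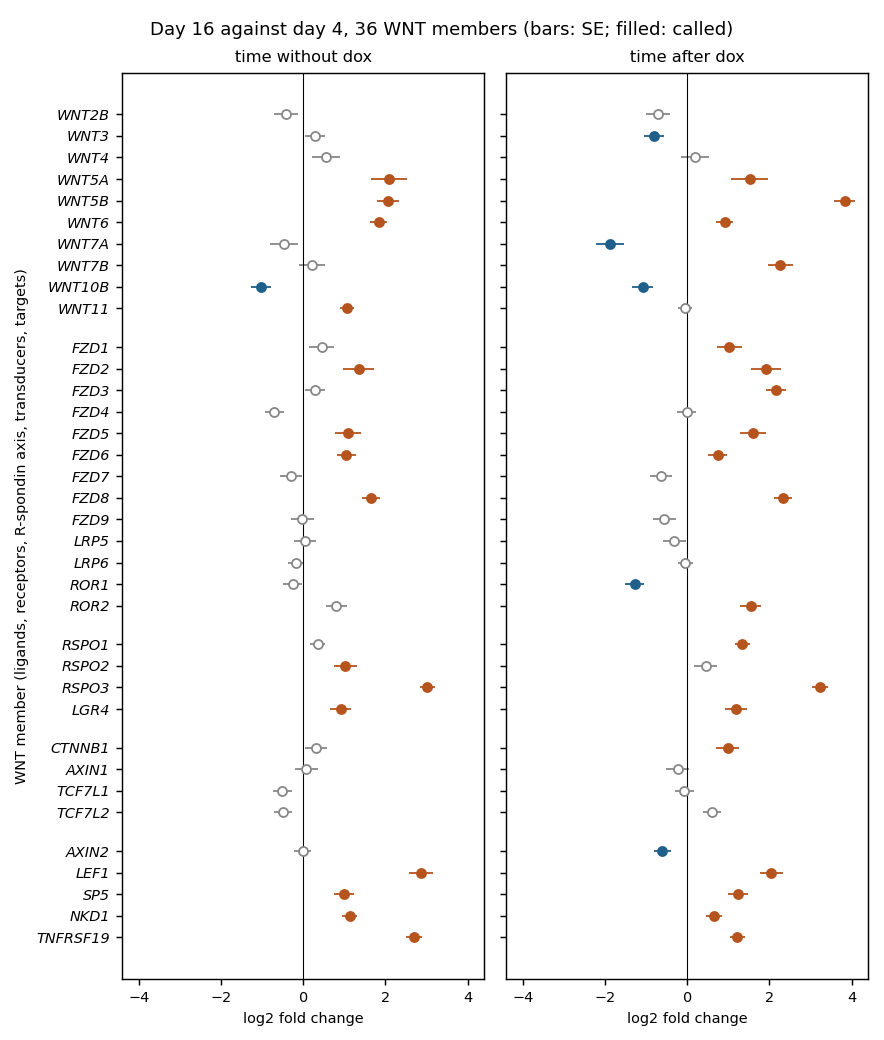
Log2 fold change of day 16 against day 4 (x axis, bars are the SE of the fit) of the 36 tested members, grouped by role on the y axis, without the drug and after it. Filled points are called (orange higher, blue lower): 15 higher and 1 lower without the drug, 19 higher and 5 lower after it.

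Among the ligands, WNT5B had the largest rise after the drug, by 3.83 ± 0.26 (limma adjusted p = 9.03e-07), and it rose by 2.05 ± 0.26 without it (limma adjusted p = 0.000191). WNT5A, the main ligand of the branch without beta-catenin, was undetected at day 4 (4.94 and 4.71 in dox-minus, 4.83 and 5.36 in dox-plus cells) and read 6.40 and 7.42 in dox-minus and 6.89 and 6.34 in dox-plus cells at day 16. It was at least 2.36-fold higher without (limma adjusted p = 0.0063) and at least 1.96-fold higher with the drug (limma adjusted p = 0.0194). WNT6, undetected at day 4 (4.67 and 4.99 in dox-minus, 4.63 and 4.68 in dox-plus cells), was at least 1.98-fold higher without the drug (limma adjusted p = 6.16e-05), and was called higher with it by the test (limma adjusted p = 0.00463), with 1 of 2 arrays detected at day 16 and its bound under 1, so no fold is given. WNT11, undetected at day 4 (4.61 and 4.59 without, 4.68 and 4.69 with the drug), was called higher without the drug (limma adjusted p = 0.00105), with its bound under 1, and was not called with the drug (limma adjusted p = 0.819). WNT7B, undetected at day 4 (5.38 and 5.18 without, 4.69 and 5.38 with the drug), was at least 3.17-fold higher after the drug (limma adjusted p = 0.000168), against 0.21 ± 0.31 without it (limma adjusted p = 0.703).

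Of the ligands that fell with time, WNT10B read 6.41 and 6.18 in dox-minus and 6.62 and 5.93 in dox-plus cells at day 4 and was undetected at day 16 (5.45 and 5.07 without, 5.26 and 5.11 with the drug). It was at least 1.67-fold lower without (limma adjusted p = 0.0117) and at least 1.70-fold lower with the drug (limma adjusted p = 0.00489). WNT7A read 6.38 and 6.57 in dox-minus and 7.40 and 6.19 in dox-plus cells at day 4, and was at least 2.43-fold lower at day 16 after the drug (limma adjusted p = 0.00132). Without the drug it changed by -0.48 ± 0.34 (limma adjusted p = 0.394). WNT3 read 7.71 and 7.35 in dox-minus and 7.66 and 7.19 in dox-plus cells at day 4, and changed by -0.81 ± 0.24 with the drug (limma adjusted p = 0.0215) and by 0.28 ± 0.24 without it (limma adjusted p = 0.485). The ligands called with time thus went in both directions.

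Receptors called with time rose, with the exception of ROR1 by the probe used. They were 30.8% of the 13 tested without the drug, against 18.0% of all genes, and 61.5% after it, against 36.6%. FZD8, at 6.62 and 6.70 in dox-minus and 7.40 and 7.11 in dox-plus cells at day 4, rose by 1.65 ± 0.21 without (limma adjusted p = 0.000214) and by 2.33 ± 0.21 with the drug (limma adjusted p = 8.49e-06). FZD3, at 8.55 and 8.77 in dox-minus and 8.62 and 9.14 in dox-plus cells at day 4, rose by 2.15 ± 0.24 after the drug (limma adjusted p = 4.14e-05) and changed by 0.28 ± 0.24 without it (limma adjusted p = 0.495). FZD2 read 10.76 and 10.45 without and 11.01 and 9.80 with the drug at day 4, and 12.28 and 11.61 without and 12.06 and 12.59 with it at day 16. It rose by 1.34 ± 0.37 without (limma adjusted p = 0.0253) and 1.92 ± 0.37 with the drug (limma adjusted p = 0.0019). In FZD2 as in FZD8, the day 4 and day 16 arrays of a treatment did not overlap. That was so for 19 members higher and 7 lower of the 36 without the drug, and for 20 and 8 with it. The share of all genes without such overlap was not computed.

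FZD5, an eye field Frizzled, read 8.35 and 7.76 without and 8.85 and 7.85 with the drug at day 4, and 9.38 and 8.91 without and 9.81 and 10.09 with it at day 16. It rose by 1.09 ± 0.31 (limma adjusted p = 0.0309) and 1.60 ± 0.31 (limma adjusted p = 0.00215). FZD6 read 6.72 and 6.48 without and 7.05 and 6.77 with the drug at day 4, and 7.68 and 7.61 without and 7.71 and 7.58 with it at day 16, rises of 1.05 ± 0.23 (limma adjusted p = 0.00752) and 0.74 ± 0.23 (limma adjusted p = 0.0258). FZD3, FZD1, ROR2 and ROR1 were called after the drug and not without it by the probe used. By the test of the difference FZD3 differed between the treatments (limma adjusted p = 0.00605), and FZD1, ROR2 and ROR1 did not pass it (adjusted p of 0.46, 0.26 and 0.0897). FZD1 read 5.81 and 5.64 at day 4 and 6.79 and 6.70 at day 16 in dox-plus cells, a rise of 1.02 ± 0.31 (limma adjusted p = 0.022), and its other kept probe, detected only at day 16, gave 1.39 without the drug (adjusted p over probes 0.000474) against 0.44 for the probe used. ROR2 read 7.71 and 7.29 at day 4 and 8.87 and 9.21 at day 16 in dox-plus cells, a rise of 1.54 ± 0.26 (limma adjusted p = 0.000839). ROR1, a receptor of WNT5A, read 9.96 and 10.46 at day 4 and 8.83 and 9.01 at day 16 in dox-plus cells, a log2 fold change of -1.29 ± 0.24 (limma adjusted p = 0.00139). Its other kept probe, detected on no dox-plus array, gave -0.455 (adjusted p over probes 0.246).

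Cell type markers also moved with time, where 18.0% of all genes were called without the drug and 36.6% after it. Without the drug, 9 mesenchyme markers rose and 2 fell of 11, led by COL3A1, 4 mesoderm markers rose and 1 fell of 7, led by HAND1, and all 6 hindbrain and spinal markers rose, led by HOXB8. Neural progenitor markers rose in 5 and fell in 1 of 7, led by PAX6, forebrain markers rose in 7 of 8, led by RAX, and pluripotency markers fell in 5 of 6, led by NANOG. After the drug, 6 rose and 3 fell of the mesenchyme list, led by LUM, 1 rose and 1 fell of the mesoderm list, led by HAND1, 2 of 6 hindbrain and spinal markers rose, led by HOXB2, 5 rose and 1 fell of the neural progenitor list, led by HES5, all 8 forebrain markers rose, led by RAX, and 4 of 6 pluripotency markers fell, led by NANOG. Their part in the WNT members' changes with time was not tested.

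RSPO1, RSPO2, LGR4 and CTNNB1 were also called with time. RSPO1, undetected on all 4 arrays of day 4 (4.43 to 4.48), was at least 1.09-fold higher at day 16 after the drug (limma adjusted p = 0.000165) and was undetected at both days without it. RSPO2 read 5.90 and 6.01 without and 5.25 (not detected) and 5.94 with the drug at day 4, and changed by 1.02 ± 0.28 without (limma adjusted p = 0.0248) and 0.44 ± 0.28 with it (limma adjusted p = 0.236). Its other kept probe changed by 2.88 without (adjusted p over probes 8.11e-07) and 0.26 with the drug (adjusted p over probes 0.322). That probe passed the detection filter only through dox-minus day 16, which favoured a rise without the drug. LGR4 read 6.87 and 7.15 without and 7.34 and 7.97 with the drug at day 4, and rose by 0.91 ± 0.26 (limma adjusted p = 0.0329) and 1.18 ± 0.26 (limma adjusted p = 0.00478). CTNNB1 read 8.18 and 8.45 at day 4 and 9.41 and 9.18 at day 16 in dox-plus cells, a rise of 0.98 ± 0.27 (limma adjusted p = 0.0149), and changed by 0.31 ± 0.27 without the drug (limma adjusted p = 0.492). It was the 1 of 4 transducers called with time.

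Several calls with time depend on 1 array. Without dox-minus day 4 replicate 2, the count without the drug fell from 16 to 9, and WNT5A, FZD2, FZD5, FZD6, RSPO2, LGR4 and SP5 were lost (adjusted p from 0.055 to 0.229). Without dox-minus day 4 replicate 1, WNT10B, FZD2, RSPO2 and LGR4 were lost (0.0721 to 0.19), without dox-minus day 16 replicate 1 FZD2, FZD5, RSPO2 and SP5 (0.0505 to 0.147), and without dox-minus day 16 replicate 2 WNT10B, RSPO2 and LGR4 (0.0658 to 0.155). LGR4 was also lost without shLuc replicate 1 (0.0527) or 2 (0.0533). After the drug, the count fell from 24 to 15 without dox-plus day 16 replicate 1, which ended the calls of WNT3, WNT5A, WNT6, FZD1, FZD6, LGR4, CTNNB1, AXIN2 and NKD1 (0.0512 to 0.19). Without dox-plus day 4 replicate 1, WNT3, WNT5A, WNT10B, FZD1, CTNNB1 and NKD1 were lost (0.0524 to 0.162), and FZD1, FZD6, AXIN2 and NKD1 were lost without dox-plus day 16 replicate 2 (0.0624 to 0.0908) or dox-plus day 4 replicate 2 (0.0582 to 0.162). AXIN2 was also lost without shLuc replicate 1 (0.0501) or 2 (0.0504). The rises of RSPO3, LEF1, TNFRSF19, WNT5B, FZD8, FZD3 and WNT7B given above were called in every fit that left out 1 array.

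The 10 tested members that were called in 0 of the 6 comparisons were WNT2B, WNT4, FZD4, FZD7, FZD9, LRP5, LRP6, AXIN1, TCF7L1 and TCF7L2. TCF7L1 and TCF7L2 are TCF factors that bind beta-catenin. TCF7L2 came closest at day 4, with 8.52 and 8.47 in dox-minus and 7.59 and 7.85 in dox-plus cells (-0.78 ± 0.22, limma adjusted p = 0.112). FZD7, a Frizzled known in human embryonic stem cells, read 10.65 and 10.76 against 11.39 and 11.48 at day 4 (0.73 ± 0.27, limma adjusted p = 0.232), but its other kept probe gave 0.17 for the same comparison. WNT2B was detected on 1 array of dox-plus day 4 and on both shLuc arrays, and WNT4 on 0 of 4 arrays of day 4.

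Of 32 further genes of WNT secretion, the destruction complex and nuclear cofactors, 22 were tested. At day 16, 3 rose and 3 fell with the drug. CTNNBIP1, which blocks beta-catenin from binding TCF factors, rose by 1.79 ± 0.22 (limma adjusted p = 0.000255), and TLE4, a corepressor of TCF factors, by 1.45 ± 0.23 (limma adjusted p = 0.00135). The ligand WNT10A was at least 2.10-fold lower (limma adjusted p = 0.00117), and WLS, the carrier that brings WNT proteins to the surface, changed by -1.32 ± 0.22 (limma adjusted p = 0.00209). BCL9 (higher) and CSNK1D (lower) were lost without single day 16 arrays (adjusted p up to 0.0827 and 0.103). In this list, 0 genes were called at day 4 and 0 in the knockdown, 4 rose and 1 fell with time without the drug, 7 rose and 4 fell with time after it, and 3 effects were higher and 1 lower at day 16 than at day 4. WLS led the rises with time without the drug at 3.32 ± 0.22 (limma adjusted p = 8.96e-07), and CTNNBIP1 those after it at 3.62 ± 0.22 (limma adjusted p = 3.71e-07) and in the difference of the dox effects at 2.30 ± 0.31 (limma adjusted p = 0.00101).

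Planar polarity and WNT-calcium genes numbered 16, with 14 tested. At day 16, 1 rose (CELSR2, a cadherin of planar polarity, by 1.15 ± 0.24, limma adjusted p = 0.00783) and 3 fell (DACT1, DACT3 and DAAM2). DACT3, a dishevelled-binding antagonist, changed by -1.24 ± 0.23 (limma adjusted p = 0.00361) and was called in every fit that left out 1 array. CELSR2 was lost without dox-plus day 16 replicate 2 (adjusted p = 0.0643), DAAM2 without either dox-plus array of day 16 (up to 0.108), and DACT1 without 3 of the 4 day 16 arrays, dox-minus replicate 1 being the exception (up to 0.1). In this list 0 genes were called at day 4 and 0 in the knockdown, 3 rose and 0 fell with time in each treatment, and 1 (DACT1) had a lower dox effect at day 16 than at day 4.

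Of 18 further genes reported as WNT targets, 13 were tested, and many of them also answer to other signals. With the drug at day 16, 1 rose and 6 fell. CD44, an adhesion receptor of mesenchymal cells, changed by -4.38 ± 0.29 (limma adjusted p = 1.7e-06), MSX1, a homeobox gene also controlled by BMP, by -2.52 ± 0.34 (limma adjusted p = 0.000491), and MYC by -1.54 ± 0.17 (limma adjusted p = 0.000127). CDX2, a factor of posterior identity, was at least 1.23-fold lower (limma adjusted p = 0.000954). SOX9 was the 1 that rose (0.82 ± 0.21, limma adjusted p = 0.0243), lost without either dox-minus array or dox-plus replicate 1 of day 16 (adjusted p up to 0.208). In the knockdown, TBXT, the mesoderm factor brachyury, was the 1 called, undetected in shLHX2 and detected in shLuc cells, at least 1.38-fold lower (limma adjusted p = 0.00824). It was lost without each of the 4 knockdown arrays (adjusted p up to 0.153). At day 4, 0 were called, 6 rose and 2 fell with time without the drug, 6 rose and 4 fell after it, and 1 effect was higher and 5 were lower at day 16 than at day 4.

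WNT antagonists, most of them secreted proteins that bind ligands or LRP co-receptors, numbered 14, with 12 tested. The list includes KREMEN2, a membrane protein that is not secreted and was among the 5 that fell at day 16. At day 4, CER1 (1.24 ± 0.25, limma adjusted p = 0.0301) and SFRP2 (0.98 ± 0.20, limma adjusted p = 0.0302) rose in dox-plus cells, the only genes of the WNT members and the 4 WNT lists called at that day. At day 16, FRZB rose by 2.25 ± 0.22 (limma adjusted p = 4.31e-05), and 5 fell, of which SOST was at least 2.38-fold lower (limma adjusted p = 3.61e-05), DKK2 at least 1.68-fold lower (limma adjusted p = 0.0061) and DKK1 changed by -1.23 ± 0.24 (limma adjusted p = 0.00463). In the knockdown 4 of the 12 fell and 0 rose, against 0.543% of all genes called in either direction. They were DKK1 (-1.78 ± 0.24, limma adjusted p = 0.00542), SFRP2 (-1.28 ± 0.20, limma adjusted p = 0.014), FRZB (-1.22 ± 0.22, limma adjusted p = 0.0351), and CER1, undetected in shLHX2 cells, at least 2.51-fold lower (limma adjusted p = 0.033). DKK1 is itself a WNT target. It and SP5 were lower on the shLHX2 arrays, while AXIN2 was higher (0.37, not called), and a shared cause was not tested. The day 4 calls were lost without either dox-minus day 4 array (adjusted p up to 0.192) and without either shLuc array (up to 0.0632), SFRP2 also without either dox-plus day 4 array and CER1 without dox-plus day 4 replicate 2 (up to 0.111). In the knockdown, DKK1 was lost without shLHX2 replicate 1 (0.0683) or shLuc replicate 1 (0.112), and SFRP2 (up to 0.231), FRZB (up to 0.378) and CER1 (up to 0.332) without each of the 4 knockdown arrays. With time 6 rose and 1 fell without the drug, 3 rose and 3 fell after it, and 1 dox effect was higher and 4 were lower at day 16 than at day 4.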

How the data were processed

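Per the labels' protocols, biotinylated cRNA from an Ambion MessageAmp kit was hybridised to the 12 arrays. Per the file headers, each deposited file gives the mean bead intensity of every probe, a detection p-value and a bead count. The array medians of the deposited intensities ran from 73.1 to 89.2, so they were not normalized between arrays. Whether a background was subtracted, the scanner software and the genome build are not given in the sources used here, and no slide or scan is named. The deposited series table held the same intensities for 10 of 12 arrays, and its 2 shLuc columns held each other's values, which touches only their replicate numbers.

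Probes were matched by Entrez identifier: of 47227, 35670 matched a current symbol, 8287 kept the name in the file and 3270 carried no identifier. Intensities were corrected and normalized with neqc of limma 3.58.1 in R 4.3.3 (normexp, control statistics estimated through the detection p-values, quantile normalization, an offset of 16, log2 scale). The filter kept 21526 probes, and each gene was read from its kept probe with the highest mean; 9 members had several kept probes. One limma fit (group means, residual degrees of freedom 6) gave the 6 comparisons, adjusted by Benjamini-Hochberg over 15650 genes. It was tested on simulated data first. Bead counts were not used.

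Same-numbered arrays were not treated as pairs, since their deviations correlated at 0.33 (dox groups at day 4), -0.58 (day 16) and 0.07 (knockdown). The members, the gene lists and the alternatives were chosen with earlier results of these data known. All members are accounted for, and those called in at least 1 comparison are given with their arrays' values. Of the pathway, polarity, target and antagonist lists, the counts and up to 4 called genes with the largest change per comparison are named, and of the marker lists the called gene with the largest change. TCF/LEF and homeodomain core motifs were searched on both strands of the RefSeq promoters.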

Additional observations from a re-analysis of the deposited data

Results flagged for a closer look

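The 6 members below had a dox effect that differed between day 16 and day 4 by the test of the difference itself (limma, adjusted over 15650 genes, n = 2 arrays a group). For WNT5B the difference was 1.78 ± 0.37 (SE; adjusted p = 0.0132), from an effect of -0.35 at day 4 to 1.42 at day 16. For WNT7B it was 2.05 ± 0.44 (adjusted p = 0.0141), from -0.25 to 1.81. FZD3 differed by 1.87 ± 0.34 (adjusted p = 0.00605), from 0.22 to 2.09, and RSPO1 by 0.98 ± 0.26 (adjusted p = 0.0374), from -0.05 to 0.94. In the other direction, TNFRSF19 differed by -1.48 ± 0.27 (adjusted p = 0.00553), from 0.19 to -1.29, and WNT11 by -1.12 ± 0.24 (adjusted p = 0.0158), from 0.08 to -1.04. WNT7B, WNT11 and RSPO1 were detected on 0 of 4 arrays of day 4, so their day 4 effects are differences between undetected signals. Each passed the detection filter only through the day 16 group where it was highest, which favoured the direction of its difference. Groups of 2 arrays were not searched for outlying arrays.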

How the results depend on the processing

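The 60 member calls were recomputed under 14 alternatives and in 12 fits that left out 1 array each, where the lone array left in a group was assumed to vary like the other groups. Of 1530 recomputed values 1379 stayed called, 151 lost the call and 0 changed sign, and 32 of the 60 kept the call in every fit that left out an array. Counts of members called ranged over the left-out fits from 0 to 0 at day 4, 8 to 14 at day 16, 0 to 3 in the knockdown, 9 to 18 with time without the drug, 15 to 26 with time after it and 2 to 8 for the difference of the dox effects. The last was 2 without dox-minus day 4 replicate 1 and 3 without dox-plus day 16 replicate 2. The knockdown count was 1 without shLHX2 replicate 1 and 0 without shLHX2 replicate 2, shLuc replicate 1 or shLuc replicate 2.

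Keeping only probes detected on all arrays removes members undetected in a group by construction, and left 6 of 12 members called at day 16, 0 of 2 in the knockdown, 7 of 16 with time without the drug, 14 of 24 with time after it and 3 of 6 for the difference. In the knockdown, an offset of 50 or no background correction gave 1 (SP5) and array weights gave 6, all lower. An adjusted p under 0.01 gave 10 with time without the drug and 2 for the difference, and one under 0.1 gave 10 for the difference. The unnormalized series table gave 2 members at day 4, both higher, where the median of all genes was 0.22. The replicate number as a block gave 0, 12, 2, 17, 24 and 5 members in the same order, with RSPO1 lost from the difference (adjusted p = 0.0605). Signal over background limits 12 members, which were detected on no array of at least 1 group.

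Over all genes, array weights gave 180 calls at day 4 (main 302) and 418 in the knockdown (main 85), the block gave 194 at day 4, the all-array filter 1388 of 2148 at day 16 and 1346 came from the unnormalized series values. The share of called genes that were higher, main against median scaling and the series table, was 69.2%, 87.1% and 93.8% at day 4, 45.9%, 28.6% and 16.4% in the knockdown, 53.8%, 62.0% and 70.4% with time without the drug, 48.5%, 38.9% and 32.2% with time after it and 40.4%, 28.3% and 17.4% for the difference. The median of all genes under those 2 scalings was 0.15 and 0.22, -0.13 and -0.17, -0.01 and 0.05, -0.12 and -0.14, and -0.15 and -0.22. The cause of these changes was not tested.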
